A study of Mus musculus with 3264 samples.

Results

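The T line is a mouse T cell line. It was mixed with a leukemia line and with hematopoietic progenitor cells (HPC), and single cells were then picked back out by ALPS, an automated instrument that images living cells and moves them one per well. The wells described here are those of the 4 target plates whose label names the T cell type. Each plate had 36 of them, and the deposited table of the mixture lists 31, 32, 24 and 33 on plates 1 to 4, or 120 in all (83.3%, Clopper-Pearson 95% interval 76.2 to 89), out of 1836 wells of that table and 3264 labelled wells of the series. They are compared with the leukemia wells (30, 34, 30 and 32 on the 4 plates) and the HPC wells (17, 21, 17 and 18) of the same plates. The labels give no strain, treatment, age or name for any line, and no animal, clone or culture. On every plate the leukemia cells were in wells 1 to 36, the T cells in wells 37 to 72 and the HPC in wells 73 to 96, so line and plate position cannot be told apart. A well holds 1 cell, and with no culture named a line is 1 sample. Differences were therefore not tested. The labels do not say whether the plates differ in culture or day, so their spread is given as it is, and intervals cover counting error only.

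T cells read antigen through a receptor that has no enzymatic activity of its own. The CD3 chains beside it are phosphorylated by the kinase Lck, which lets the kinase Zap70 bind, and Zap70 then phosphorylates the adaptor Lat, on which the rest of the signalling complex is built. Bcl11b, Gata3, Tcf7 and Lef1 are transcription factors that commit progenitors to the T lineage and keep them there, and Thy1 is the surface glycoprotein by which mouse T cells are commonly recognised. Cell lines keep only some of these features.

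A T well held a median of 37148 counts (lowest 17915, highest 81813) and 6004 detected genes (4345 to 7503), where a count is a molecule of RNA assigned to a gene. Leukemia wells had medians of 31868 counts and 5439 genes, and HPC wells 34189 and 5473. The marker genes of the 3 lines were chosen with earlier results of these data known, so they describe the wells and do not test the labels. By these markers, all 120 T wells held more of their own line's markers than of another's. Of the HPC-labelled wells of plate 4, 3 did not: wells 74 and 89 carried leukemia markers, and well 96 carried T markers at 1218.4 CPM (counts of a gene or list after the well's total is scaled to 1000000). These 3 wells sit in the comparison group, so differences are given as labelled and, where it matters, without them. Levels quoted for HPC wells leave them out. As the rule that set them aside uses the markers, marker levels without them are lower in part by that rule.

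The 5 markers that define the line were present in nearly every T well. They were picked with results of these data known, so their values describe the line and test nothing. Thy1 (chr9:44043384-44048579, GRCm38, plus strand) had a count in 120 of 120 T wells, from 179.7 to 1339.6 CPM with a median of 582.4. Outside the T label it had a count in 3 leukemia wells (2.38%) and in 1 of 73 HPC wells, the off-label well 96. Ly6a (chr15:74994877-74998031, minus strand), a GPI-anchored surface protein also known from stem cells, had a count in 98.3% of T wells (median 305.1 CPM, highest 1056.6), in 3 leukemia wells and in 13 HPC wells (17.8%). Bcl11b (chr12:107910403-108003602, minus strand) was found in 99.2% of T wells (median 274.3 CPM) and in 24.6% of leukemia wells, where the median well had none, and in 3 of 73 HPC wells, all of them off-label. Lgals7 (chr7:28863853-28866284, plus strand), a galectin best known from stratified epithelia, was found in 99.2% of T wells (median 169.4 CPM), in 1 leukemia well and in 2 HPC wells, 1 of them well 96. Lck (chr4:129548344-129573641, minus strand) was found in 96.7% (median 81.5 CPM), in 11 leukemia wells (8.73%) and in 11 HPC wells (15.1%). After thinning every well to 10000 counts, the shares of T wells with a count were 100% for Thy1, 90.8% for Bcl11b, 88.3% for Ly6a, 81.7% for Lgals7 and 66.7% for Lck. In leukemia wells they were 0%, 6.35%, 0.794%, 0% and 3.17%, and in HPC wells, off-label wells included, 1.37%, 2.74%, 8.22%, 2.74% and 8.22%.

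**Figure D1:**
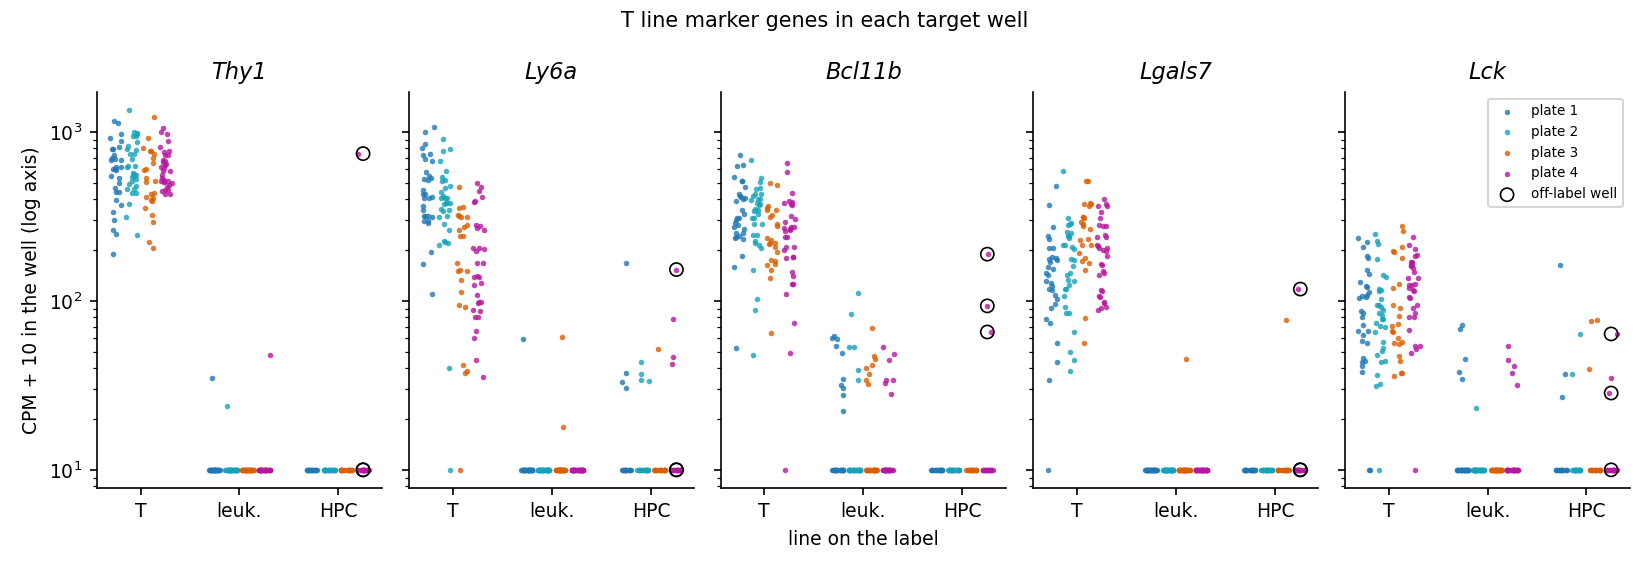
CPM plus 10 (log axis) of the 5 T line markers in each target well, by the line on the label and coloured by plate; rings mark the 3 off-label HPC wells. The T wells lie apart from the other wells for Thy1, where 1 ringed well lies at their level, and Ly6a runs lower on plates 3 and 4.

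Markers of the other lines were near 0 in T wells, with 2 exceptions. Flt3 and Ifitm1 had no count in any of 120 T wells, which allows a share of up to 2.5% of wells with a count (3 of 120, the limit set for a count of 0), and Cd34, Sox4, Tyrobp and Cd160 each had a count in 1 well. The first exception is well 43 of plate 2, which held 21 counts of Thy1 together with 3 of Cd34, 6 of Plac8, 7 of Tyrobp and 7 of Mef2c. All Cd34, Sox4 and Tyrobp counts of the line come from that well. The other exception is Cd3g, a chain of the antigen receptor that served as a leukemia marker: 63 T wells (52.5%) had a count, with a median of 17.5 CPM and a highest well of 458.98 CPM.

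T wells were then set against the pooled leukemia and HPC wells within each plate, as the difference in log2 (CPM + 1) averaged over the 4 plates. A gene is called here where that difference is 2-fold or more and has the same sign on all 4 plates. Of 8410 genes with enough counts, 12% were called higher in the T line and 12.2% lower. Counts for the gene lists below are read beside these shares. The median difference over all genes was 0.00. Leaving out the 3 off-label wells, or these and the mixed wells (well 43 of plate 2 and 1 leukemia well), kept both shares between 12.1 and 12.4%.

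Thy1 led the higher genes. It stood at 610.5, 629.3, 547.8 and 601.5 CPM in the T wells of plates 1 to 4 and at 0.564, 0.287, 0 and 24.5 CPM in the other wells. The groups do not overlap on any plate's mean, and plate 4's level in the other wells is almost wholly well 96. The difference was 7.80 on the log2 scale (plates 4.56 to 9.10). Without the off-label wells it was 8.79, a 1594-fold ratio of shares of counts (interval 551.2 to 16464). Those wells were set aside by markers that include Thy1, so these larger values follow in part from that rule. The 15 largest differences ran from 5.75 to 7.80 as labelled and from 5.75 to 8.79 without those wells.

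Several of the leading genes are known mainly from other tissues. Sp9, a zinc finger factor known from the developing forebrain and limb, had a difference of 5.92 and was found in 88.3% of T wells. Mab21l2, a gene of eye development, had one of 5.87 and was found in 89.2%. Outside the off-label wells neither had a count in the other lines. Taking 3 counts over that whole group as the limit, Sp9 was at least 187.9-fold and Mab21l2 at least 178.2-fold higher. Tex19.1 and Xlr, both known from germ cells, stood at 129.1 and 64.4 CPM in T wells (differences 6.10 and 5.75). Galnt6, which starts O-linked sugar chains on proteins, was at 92.8, 118.97, 345.1 and 275.7 CPM on plates 1 to 4, higher on plates 3 and 4, with a difference of 6.4, or 7.40 without the off-label wells. Ccdc91 (6.82), the gamma-glutamyltransferase Ggt1 (5.98) and Uaca (5.91) were also among the 15. Hid1, a protein of the trans-Golgi network, had counts in T wells and none in any other target well, at least 164.6-fold higher. It was uneven within the line, at 111.7, 141.2, 17.3 and 27.9 CPM on plates 1 to 4.

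**Figure D2:**
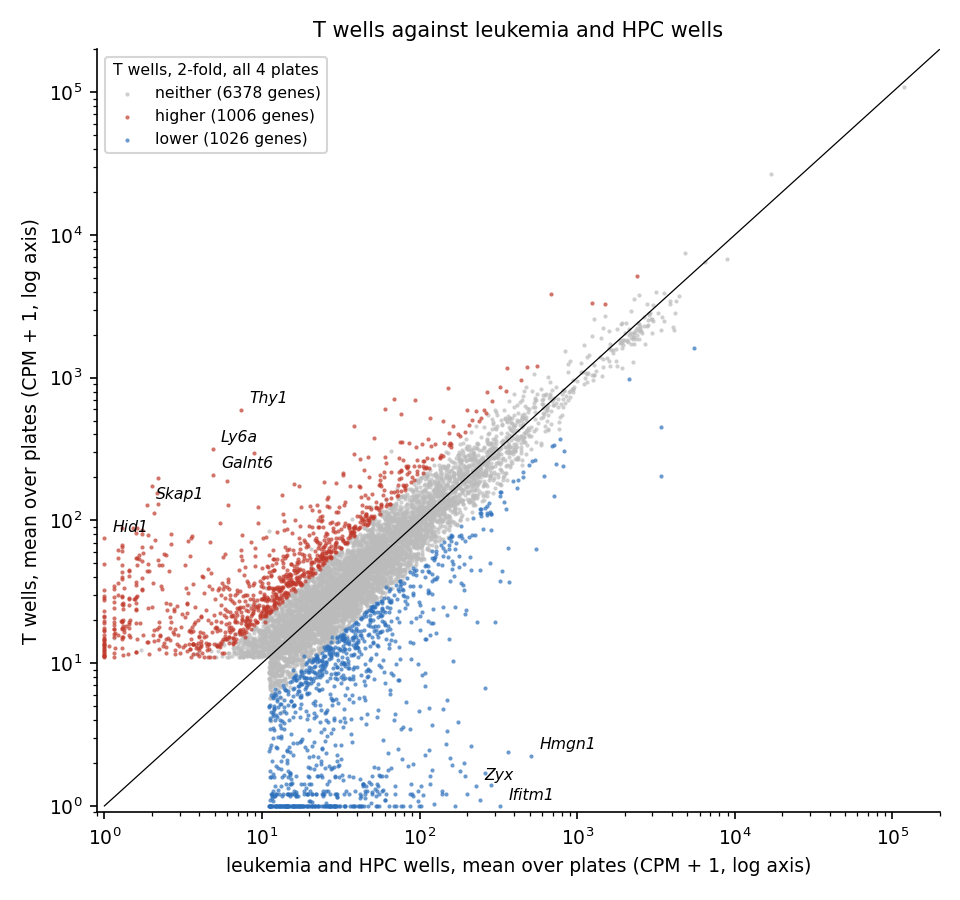
Mean over plates of CPM plus 1 in leukemia and HPC wells (x) and in T wells (y), on log axes, for the 8410 genes assessed; colours mark the genes called higher (12%) and lower (12.2%) in T wells. Thy1, Skap1 and Hid1 lie far to the left, Ifitm1 and Hmgn1 at the bottom right.

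The largest differences in the other direction combine genes of either line. Ifitm1, an interferon-induced membrane protein, had 0 counts in the T line and stood between 260.9 and 420.3 CPM in the other wells of each plate (difference -8.33). HPC wells held 903.9 CPM and leukemia wells 10.7, and T wells were at least 532.3-fold lower. Plac8, Cd34, Ybx3, Ccr2 and Mef2c are likewise genes of the HPC wells, with differences from -7.71 to -6.83. T wells differed from HPC wells in these 5 by -9.22 to -8.27 and from leukemia wells by -3.35 to 0.74. For Mef2c, plate 2 with its mixed well gave -4.85. Cd160, Cmah, Cel, Plagl1, Cd7 and Ppic are genes of the leukemia wells, from which T wells differed by -8.43 to -7.60.

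Hmgn1, Zyx and Gimap6 were lower in T wells than in both lines. Hmgn1, a nucleosome-binding protein, stood at 0, 4.20, 0.809 and 0 CPM in T wells and at 500.2, 463.3, 538.1 and 545.6 CPM in the others. In the T line 4 wells had a count, the highest at 85.5 CPM, and the difference was -8.29 against leukemia and -8.01 against HPC wells. Zyx, a focal adhesion protein, had 2 counts in the T line (differences -7.92 and -5.56), and Gimap6, a GTPase of lymphocytes, 1 count (-7.33 and -4.65).

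Of the antigen receptor itself the line held a partial set, as far as its genes are measured here. Cd3e, the epsilon chain, was in 120 of 120 T wells (40.5 to 399.4 CPM, median 197.9). Its difference from the other wells was 0.36, under the 2-fold rule: leukemia wells held 237.2 CPM and HPC wells 0.237. Cd3g was lower in T wells, at 32.7, 42, 25.9 and 25.9 CPM against 225.5, 180.1, 161.2 and 190.1 CPM in the other wells (difference -2.56, plates -2.83 to -2.07). Cd3d had a count in 25 T wells (8.91 CPM) and Cd247, the zeta chain, in none. The receptor's own alpha and beta constant segments have no entry in the counts under the symbols Trac, Trbc1 and Trbc2, so they could not be measured here. Of the coreceptors, Cd4 had a count in 1 T well and Cd8a in 7, while Cd8b1, the CD8 beta chain, had one in 79 wells (43 CPM) and was higher than in the other wells (4.08, plates 3.56 to 4.61).

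Downstream of the receptor, 8 of the 27 proximal signalling genes assessed were higher, 7 were lower and 12 were neither, with a median difference of -0.17. These are 29.6% and 25.9%, beside 12% and 12.2% of all genes. Lck stood at 90.6, 79, 94.9 and 112.8 CPM in T wells, against 3.42 CPM in leukemia and 4.59 in HPC wells, a difference of 4.30. Zap70 was at 104.8 CPM against 33.9 in leukemia wells and 1.16 in HPC wells (2.15). Lat was in every T well, at 289.6, 303.8, 445.6 and 473.8 CPM, with a difference of 2.89. Skap1, an adaptor that links the receptor to integrins, was at 123.7, 128.3 and 124.1 CPM on plates 1, 3 and 4, a little higher on plate 2, and had no count in the on-label wells of the other lines (6.46). Sit1 and Themis, a transmembrane adaptor and a protein needed for thymocyte selection, had no count outside the T wells (4.87 and 3.82). Sla, an adaptor that dampens signalling (2.34), was higher too. Lower were Dgka, which removes diacylglycerol (-4.77), the phosphatase Ptpn6 (-4.67), the adaptor Sh2d1a (-4.29), the kinase Prkcq (-3.84), Sh2d2a (-3.35), Ubash3b (-1.13) and Csk, the kinase that restrains Lck (-1.07).

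Among the T lineage transcription factors, 11 of 27 were higher and 6 lower (40.7% and 22.2%, beside 12% and 12.2% of all genes, median 0.34). Ikzf3 was at 78.9 CPM and had no count in the on-label wells of either other line (5.83). Bcl11b was at 293.9 CPM against 9.03 in leukemia wells and 0 in HPC wells (5.12), and Rora at 67 CPM against 1.44 and 0.455 (4.91). Tox2 (4.5), Irf4 (3.62), Ets1 (3.11), Zbtb7b, the factor of CD4 lineage choice (2.61), Lef1 (2), Gata3 (1.77), Tox (1.59) and Batf (1.02) followed. Tcf7 was abundant in the T line, with 691.1 CPM and a count in every well, and its difference was 0.93, with 560.9 CPM in leukemia wells. Lower were Satb1, a chromatin organiser of thymocytes (0.942 CPM in T wells against 144.4 and 189.4 in leukemia and HPC wells, -6.54), Ikzf2 (-5.24), Id3 (-3.57), Nfatc1 (-3.04), Klf2 (-2.85) and Ikzf1 (-1.96). Foxp3 and Eomes had no count in any target well.

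**Figure D3:**
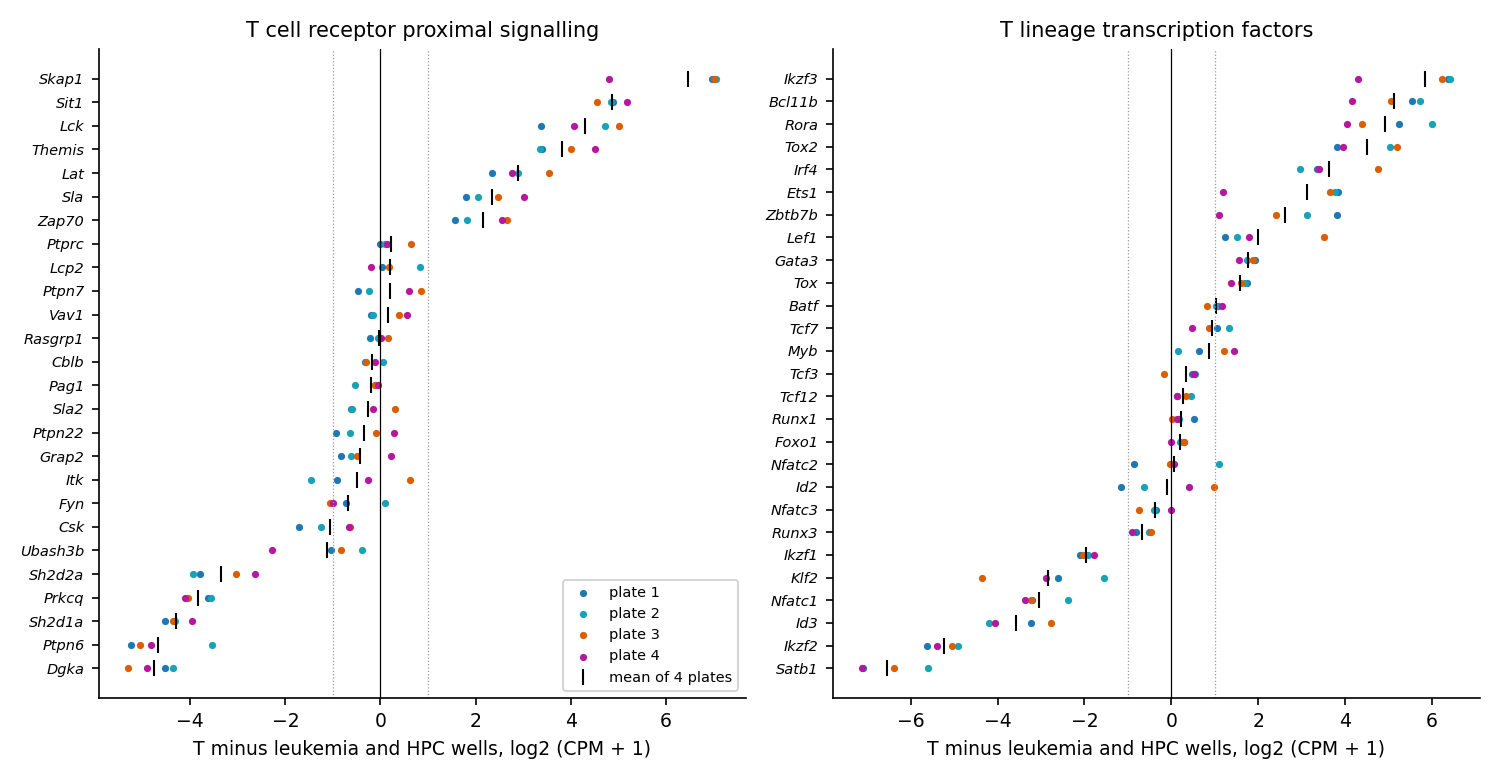
Difference in log2 (CPM + 1) between T wells and the leukemia and HPC wells of the same plate, 1 dot per plate and a bar for the mean, for assessed genes of 2 lists (26 of 27 signalling genes and all 27 factors); dotted lines mark 2-fold. Skap1 and Ikzf3 have the highest means, 6.46 and 5.83.

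Surface receptors differed in both directions. Of 12 costimulatory and checkpoint receptors assessed, 3 were higher (Cd8b1, Pdcd1 and Tnfrsf18) and 7 lower (median -2.89), and 18 others of the list had too few counts. These are 25% and 58.3%, beside 12% and 12.2% of all genes. Pdcd1, the receptor PD-1, had a count in 52 T wells and stood at 27.2 CPM (4.45). Cd7 (-7.36), Cd27 (-6.46), Cd96 (-4.88), Cd69 (-2.95) and Cd28 (-2.83) were lower. Of 17 cytokine receptor and SOCS genes, Il2rg, the common gamma chain (1.19), and Tgfbr2 (1.46) were higher and 8 were lower, among them Il18rap (-6.47), Socs2 (-5.74) and Il18r1 (-5.35). The share higher, 11.8%, is near that of all genes, and 47.1% were lower. Among homing genes, the chemokine receptor Ccr4 (43.1 CPM, 4.70), the integrin chain Itgal (3.12) and Ccr8 (1.61) were higher and 5 of 13 were lower, among them Itga4 (-6.25) and Selplg, the ligand of P-selectin (-5.49). In this list 23.1% were higher and 38.5% lower. Of 6 cytotoxic and NK genes assessed 5 were lower (83.3%, beside 12.2% of all genes), such as Klrd1 (-6.16), and none was higher. The 12 others had too few counts. Genes without counts in T wells enter only through the other wells, so this share does not test a direction.

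Among metabolic and redox genes more were higher than lower. Of 30 glycolysis and hypoxia genes, 12 were higher and 1 lower (40% and 3.33%, beside 12% and 12.2% of all genes, median 0.59). Hk1, a hexokinase, stood between 143.5 and 197.2 CPM on the 4 plates of T wells, against 11.8, 15.5, 15.6 and 21.5 CPM (3.36), and every T plate lay above every other plate. Egln3, the oxygen sensor PHD3, stood at 150.9 CPM against 0.0528 in leukemia wells and 27 in HPC wells (3.44), and Ldhb, a lactate dehydrogenase chain, at 27.8 CPM with no count in the on-label wells of the others (4.44). Pgk1 and Aldoa differed by 1.13 each, and Ldha by 0.89, under the 2-fold rule. Of 27 oxidative stress and iron genes, 11 were higher and 1 lower (40.7% and 3.7%, median 0.43). Among the higher were Gstm1 (3.69), Nqo1 (3.54), Blvrb (3.06), Gclm, a chain of the enzyme that starts glutathione synthesis (2.35), Hmox1 (2.30), the ferritin chain Fth1 (1.42) and thioredoxin, Txn1 (1.32). The metallothionein Mt1 was at 586.5 CPM, Mt2 at 556.7 and Mt3 at 28.2. HPC wells also held Mt1, at 622.9 CPM, and leukemia wells 1.30.

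Genes of other blood lineages were mostly lower. Of 21 stem and progenitor genes assessed 17 were lower (median -4.36) and 1, Ly6a, was higher. Flt3 (-5.54), Hoxa9 (-5.07), Hoxa7 (-4.73) and Hoxa10 (-4.29) had no count in T wells. Of 11 myeloid and mast cell genes assessed 9 were lower (81.8%), such as Ccl3 (-6.42) and Tyrobp (-6.11), and 20 others had too few counts. The same limit holds for them. Cpa3, a carboxypeptidase of mast cells, was higher (149.03 CPM, 1.25). Leukemia wells also held Cpa3, at 90.5 CPM, and HPC wells, off-label wells included, 1.28 CPM. Of 26 epithelial and stromal markers 25 had too few counts, and the remaining one, Pdgfrb, a growth factor receptor of mesenchymal cells, was higher (39.2 CPM, in 85 T wells, 4.98). With 1 gene assessed, nothing is read about that list. Of 40 germline genes 8 could be assessed, with Tex19.1, Xlr, Tex11 (4.37) and Xlr3a (2.05) higher and Ddx4 (-3.33) lower.

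The cytoskeleton and antigen presentation differed gene by gene. Of 34 actin cytoskeleton genes 12 were lower and 3 higher (35.3% and 8.82%, beside 12.2% and 12% of all genes, median -0.43). Tmsb10, an actin-binding thymosin, was at 269.4, 258.1, 131.6 and 155.4 CPM in T wells against 3883, 3193, 3224 and 3297 CPM in the others (-4.12), so no plates overlap, and its relative Tmsb4x differed by -2.91. Actn1 (4.47), Gsn (2.68) and Lmna (1.48) were higher. Of 14 antigen presentation genes 4 were higher and 4 lower (28.6% each): the peptide transporter gene Tap2 (2.20) was higher, whereas B2m (-1.19) and H2-D1 (-2.55) were lower. Of 61 histone genes none was higher and 11 were lower (18%, beside 12.2% of all genes). Of 81 ribosomal protein genes 1 was lower, Rplp1, at 1613 CPM in T wells against 5418 in leukemia and 5717 in HPC wells (-1.79).

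The T line was not the same on all 4 plates. Of the 3182 genes with at least 50 CPM in T wells, 0.251% differed at least 2-fold between plates 1 and 2, and 0.251% between plates 3 and 4. Between plates 1 and 3 the share was 5.75%, between 1 and 4 4.21%, between 2 and 3 6.03% and between 2 and 4 4.46%. With every well thinned to 10000 counts the shares were 2.14% (plates 1 and 2) and 2.86% (3 and 4), against 8.24 to 11.8% in the other 4 pairs, so the contrast was smaller. In leukemia wells of the same plates it was 0.157% (plates 1 and 2), 0.188% (3 and 4), 1.16% (1 and 3), 0.597% (1 and 4), 0.973% (2 and 3) and 0.691% (2 and 4), and in HPC wells it ran from 1.25 to 2.27%. The median gene of T wells shifted by -0.11, -0.13, -0.17 and -0.19 in the 4 pairs that join plate 1 or 2 with plate 3 or 4. The labels give no date, culture or passage for a plate, so what the plates differ in cannot be told apart. The median total of a T well was 35614, 35990, 36730 and 47422 counts on plates 1 to 4, and the median share of Rn45s, the precursor of ribosomal RNA, 8.87, 11.5, 11.4 and 10.1%. Their part in the plate differences was not tested.

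Genes of cholesterol and fatty acid synthesis differed between the plates together. Cells make cholesterol from acetyl-CoA through mevalonate, and when sterols run low the factor SREBP-2 is released to the nucleus and raises the genes of the whole pathway, often beside the factor NF-Y. Over the 31 genes of this list measured by plate, the median deviation from the mean over plates was 0.85, 0.72, -0.76 and -0.87 on plates 1 to 4. At least 2-fold higher were 22 of 31 genes on plate 1 against plate 3, 22 on plate 1 against 4, 22 on 2 against 3 and 20 on 2 against 4, and none of them was 2-fold lower. Of all 7527 genes with at least 10 CPM in T wells, the minimum used for these lists, 7.64, 6.02, 7.04 and 5.39% were 2-fold higher on the first plate of these 4 pairs and 3.59, 2.59, 3.56 and 2.92% lower. Between plates 1 and 2 no gene differed 2-fold. In leukemia wells 2 to 4 of the 31 were higher on the first plate of those 4 pairs and none lower, with median differences of 0.30 to 0.43, and in HPC wells none was higher and 1 to 6 were lower. Over all 7527 genes 2.44 to 3.36% were higher and 1.87 to 2.83% lower in leukemia wells, and 5.31 to 6.5% and 4.13 to 4.42% in HPC wells.

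Fdps, which makes farnesyl diphosphate, stood at 572.2, 471.9, 72.2 and 80.9 CPM in the T wells of plates 1 to 4. On plate 1 the wells ran from 237.96 to 1017.3 CPM and on plate 2 from 132.6 to 993.1, while no well of plate 3 exceeded 137.9 and none of plate 4 exceeded 229.7, so that plate 1 does not overlap with plate 3 or 4. In leukemia wells it was at 206.6, 211.9 and 125.4 CPM on plates 1 to 3 and lowest on plate 4. Hmgcs1, which makes the precursor of mevalonate, was at 289.4, 80.6 and 64.4 CPM on plates 2 to 4 and between plates 2 and 3 on plate 1. Insig1, the anchor of the sterol sensor, was at 207.5, 208.5, 39.4 and 37.2 CPM. Scd1, a desaturase, was at 168.4, 151.6, 12.9 and 17.9 CPM, with medians over wells of 168.5, 141.96, 0 and 0. All 4 genes were higher on plates 1 and 2 than on plates 3 and 4. Ebp, by contrast, was at 64.4, 79, 97.6 and 69.7 CPM.

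As a share of a well's counts, the whole list had medians of 0.47, 0.491, 0.148 and 0.159% on plates 1 to 4. The highest well of plate 3 reached 0.295%, and 2 of 31 wells of plate 1, 6 of 32 of plate 2 and all 33 of plate 4 lay at or below that value.

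Part of a list that joins genes under the factor Atf4 with genes of unfolded protein stress went the same way. Atf4 is translated when amino acids are short or proteins misfold, and raises genes of amino acid synthesis and transport. Of 30 genes, 13, 14, 15 and 15 were at least 2-fold higher on the first plate of the pairs 1 and 3, 1 and 4, 2 and 3, and 2 and 4, and none was lower. Over all genes 7.64, 6.02, 7.04 and 5.39% were higher in these pairs. In leukemia wells 5, 1, 8 and 4 of the 30 were higher on the first plate and 2, 0, 0 and 0 lower, and in HPC wells 3, 3, 2 and 2 were higher and 1, 1, 2 and 3 lower. Over all genes 2.44 to 3.36% were higher and 1.87 to 2.83% lower in leukemia wells. In HPC wells these shares were 5.31 to 6.5% and 4.13 to 4.42%, so the HPC counts are not read as a result about these genes. Trib3, a pseudokinase that is a target of Atf4, stood at 148.7, 127.8, 18.3 and 7.30 CPM, with a count in 28 of 31, 28 of 32, 7 of 24 and 8 of 33 wells. Asns, asparagine synthetase, was at 250, 222.4, 82 and 56.7 CPM. Pck2, the mitochondrial enzyme that makes phosphoenolpyruvate, is not in the list and was at 134.9, 143.3, 32.4 and 16.6 CPM. Slc7a3, a transporter of cationic amino acids, was at 147.4, 162.3, 21.6 and 21.2 CPM, and in leukemia wells at 0, 1.45, 1.01 and 0.948. Hspa5, the chaperone of the endoplasmic reticulum, was at 713.9, 790.7, 758.1 and 796.7 CPM and showed no such split, and the chaperones Calr, at 636.8, 718.8 and 1102.6 CPM on plates 1, 2 and 4 and highest on plate 3, and Hsp90b1, at 570.5, 683.5, 855.7 and 843.3 on the 4 plates, were higher on plates 3 and 4. Asns in leukemia wells was at 204.9, 307.7, 135.5 and 124.2 CPM.

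Promoters of genes that differed between the plates are shown for the letters that these pathways are known to use. Those shown all hold a match, so they do not stand for their lists. They are the 250 bases before the transcript start, from RefSeq, build GRCm38.p6, on the gene's strand. For Hmgcs1 (chr13:119690101-119690350, plus strand) capitals mark TCACNCCAC, a form of the sterol regulatory element, and CCAAT, the NF-Y box, here on the opposite strand as ATTGG. For Chac1 (chr2:119350992-119351241, plus strand), Pck2 (chr14:55540016-55540265, plus strand) and Asns (chr6:7693210-7693459, minus strand) they mark TGATGNAA, the core of the element bound by Atf4 with C/EBP partners, on either strand.
Hmgcs1: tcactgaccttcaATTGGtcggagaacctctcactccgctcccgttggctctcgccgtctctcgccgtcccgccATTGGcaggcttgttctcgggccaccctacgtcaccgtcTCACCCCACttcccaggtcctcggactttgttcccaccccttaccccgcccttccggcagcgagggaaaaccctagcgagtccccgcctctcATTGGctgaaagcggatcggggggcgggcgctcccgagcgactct
Chac1: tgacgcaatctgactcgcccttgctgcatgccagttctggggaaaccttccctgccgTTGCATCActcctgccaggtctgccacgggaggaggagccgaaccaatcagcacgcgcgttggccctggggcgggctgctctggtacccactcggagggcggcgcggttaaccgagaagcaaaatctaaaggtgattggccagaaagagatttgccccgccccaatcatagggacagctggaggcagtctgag
Pck2: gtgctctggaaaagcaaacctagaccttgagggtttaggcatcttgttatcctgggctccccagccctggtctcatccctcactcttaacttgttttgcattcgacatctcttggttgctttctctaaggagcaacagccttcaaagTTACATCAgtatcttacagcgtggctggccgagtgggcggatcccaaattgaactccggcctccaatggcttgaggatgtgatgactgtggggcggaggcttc
Asns: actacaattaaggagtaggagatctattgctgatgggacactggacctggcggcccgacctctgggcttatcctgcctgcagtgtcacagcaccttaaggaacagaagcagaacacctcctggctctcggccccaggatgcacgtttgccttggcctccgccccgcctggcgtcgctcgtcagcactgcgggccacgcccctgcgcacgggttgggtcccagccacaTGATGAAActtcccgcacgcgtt
Searched on both strands, TCACNCCAC occurs in 1.05% of the 32851 promoters of the table, TGATGNAA in 3.45% and CCAAT in 33.8%. Of the 33 genes in the cholesterol and fatty acid list 22 matched an entry, with 27 promoters, and 19 of these (70.4%) hold CCAAT and 1 (3.7%) holds TCACNCCAC. Of 33 genes in the stress list 30 matched, with 34 promoters, and 6 (17.6%) hold TGATGNAA while 21 (61.8%) hold CCAAT. Pck2 is not in that list, and Trib3 is not among its genes with a match to TGATGNAA. Hmgcs1 is the only gene of the cholesterol and fatty acid list with a match to TCACNCCAC. A match is a run of letters and not a measured site. Chac1, which degrades glutathione, stood at 26.6, 18.5, 8.63 and 3.98 CPM in the T wells of plates 1 to 4. It had a count in 16 of 31, 13 of 32, 6 of 24 and 5 of 33 of these wells.

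Some genes for growth were lower on plates 1 and 2. Of 27 Myc targets and ribosome biogenesis genes in T wells, 5, 4, 8 and 7 were at least 2-fold lower on the first plate of the pairs 1 and 3, 1 and 4, 2 and 3, and 2 and 4, and none was higher, beside the 3.59, 2.59, 3.56 and 2.92% lower over all genes. The other members did not reach 2-fold, and the median deviation of the list was -0.21, -0.42, 0.34 and 0.31 on plates 1 to 4. Ncl, nucleolin, stood at 2887, 2915, 5371 and 4886 CPM, and Nop58, a core protein of small nucleolar particles, at 345.2, 324.9, 750.5 and 683.1. The list took a median of 0.938, 0.908, 1.48 and 1.38% of a well's counts, and no well of plate 1 or 2 reached the lowest well of plate 3. Leukemia wells held Ncl at 2856, 2853, 3418 and 3079.6 CPM, and at most 2 genes of the list differed 2-fold there in any of these 4 pairs. Hsp90aa1, a chaperone, was at 4068, 3602, 6762 and 6111 CPM in T wells.

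Small noncoding RNAs were among the 10 genes with the widest range over plates: Rnu11, Trib3, Snord118, Scd1, Vaultrc5, Pck2, Fdps, Hid1, Mvd and Slc7a3. Rnu11, of the minor spliceosome, was at 107.4, 160.6, 7.55 and 13.3 CPM, Snord118, the U8 RNA, at 138.3, 158.9, 8.63 and 27.2, and Vaultrc5, a vault RNA, at 526.3, 555.7, 48 and 101.5. A list of 15 noncoding RNAs was compared over the pairs 1 and 3, 1 and 4, 2 and 3, and 2 and 4. At least 2-fold higher on the first plate were 6, 7, 5 and 6 in T wells, beside 5.39 to 7.64% of all genes. In leukemia wells 2, 3, 4 and 3 were, beside 2.44 to 3.36%. Each of these lines had 1 lower, in the first pair. In HPC wells 0, 1, 1 and 1 were higher and 3, 1, 0 and 0 lower, beside 5.31 to 6.5% and 4.13 to 4.42%. Receptor signalling genes had median deviations of -0.10, -0.20, 0.21 and 0.19 on plates 1 to 4. Plates 1 and 2 differed in immediate early genes, with 6 of 15 at least 2-fold lower on plate 1 and 0 higher. Of all genes 0.757% were lower in that pair. In leukemia wells 0 and in HPC wells 3 of the 15 were lower, beside 1.12 and 3.73% of all genes. Ly6a was at 478.7, 402.02, 197.9 and 189.9 CPM, lower on plates 3 and 4.

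**Figure D4:**
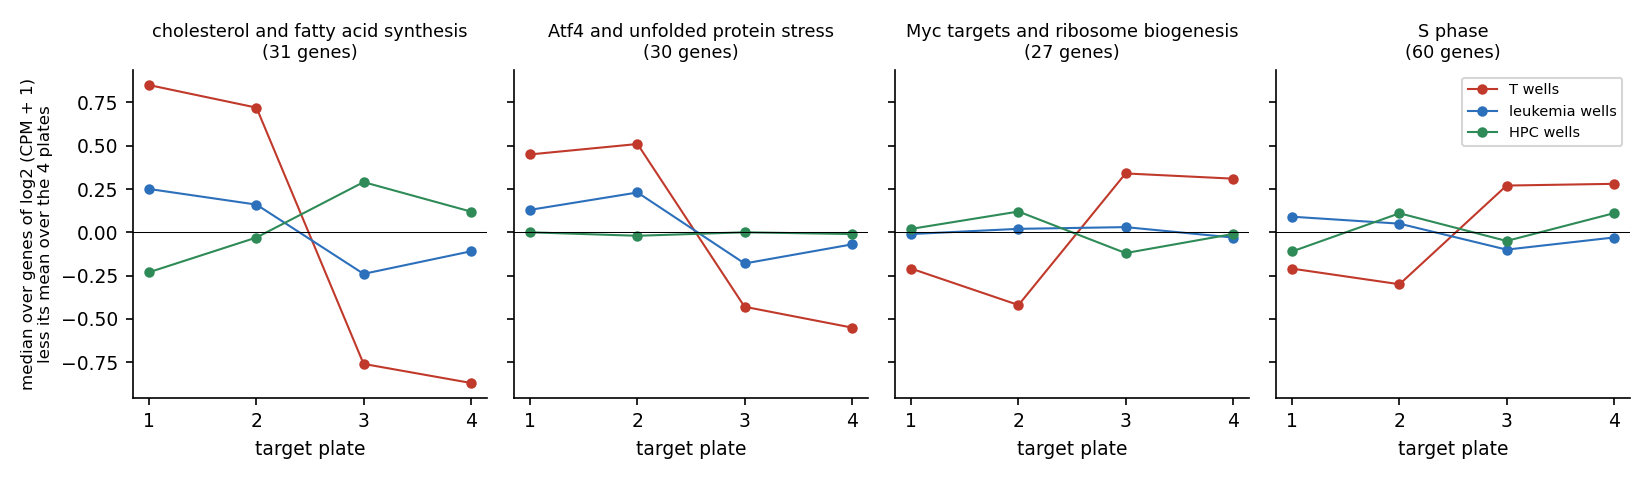
Median over the genes of 4 lists of log2 (CPM + 1) less its mean over the 4 plates, by plate, in T, leukemia and HPC wells (HPC without the off-label wells). In T wells the cholesterol list runs from 0.85 on plate 1 to -0.87 on plate 4, and the Myc and S phase lists run the other way.

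Within a plate, T wells differed little in most genes. Variation was taken as the excess CV, the coefficient of variation of scaled counts between wells of a plate after the part due to counting is removed. Among genes with a mean of at least 5 scaled counts, the median excess CV was 0.194, 84 genes lay at 0 and 39 (3.08%) reached 0.5. In leukemia wells 43 genes reached it (4.115%, median 0.229) and in HPC wells 13.6% (median 0.289), where the 3 off-label wells and fewer wells per plate enter. Ribosomal protein genes had a low excess CV as a list (80 genes, median 0.111, highest 0.199). Thy1 had 0.315, Bcl11b 0.351, Lck 0.375, Lgals7 0.407 and Ly6a 0.499, and Actb 0.139.

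Lrrc17, a secreted protein with leucine-rich repeats, combined a high level with wide variation. Its wells ran from 0 to 25369 CPM with a median of 2349.5 and quartiles of 951.6 and 4828, and its excess CV was 1.20. The spread was alike on every plate (1.15, 1.19, 1.12 and 1.34). Without the highest well of each plate it was 0.992. Cpa3 ran from 0 to 879.9 CPM and had a count in 95 of 120 wells (1.05), and Vaultrc5 reached 1.03, or 0.675 without the highest wells.

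Ccdc36, Kif3a and Timm22 had the 3 highest values (1.54, 1.47 and 1.35) and were high and low in the same wells. After each plate's mean was removed, their Spearman correlations over 120 T wells were 0.95 for Ccdc36 and Kif3a, 0.89 for Ccdc36 and Timm22 and 0.87 for Kif3a and Timm22. Ccdc36 lies at chr9:108403611-108428484 on the minus strand, and Kif3a (chr11:53567379-53601967) and Timm22 (chr11:76406952-76416292) lie on the plus strand. Of their positive values in T wells, 94.2, 84.2 and 79.6% were not whole numbers, against 4.17% for Thy1. How molecules were divided between genes is not known here, so the 3 genes are uncertain as separate measurements. Hist1h2ao and Hist1h2ap, near-identical histone genes, correlated at 1 with 94 and 94% of values not whole, and are read as 1 measurement.

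**Figure D5:**
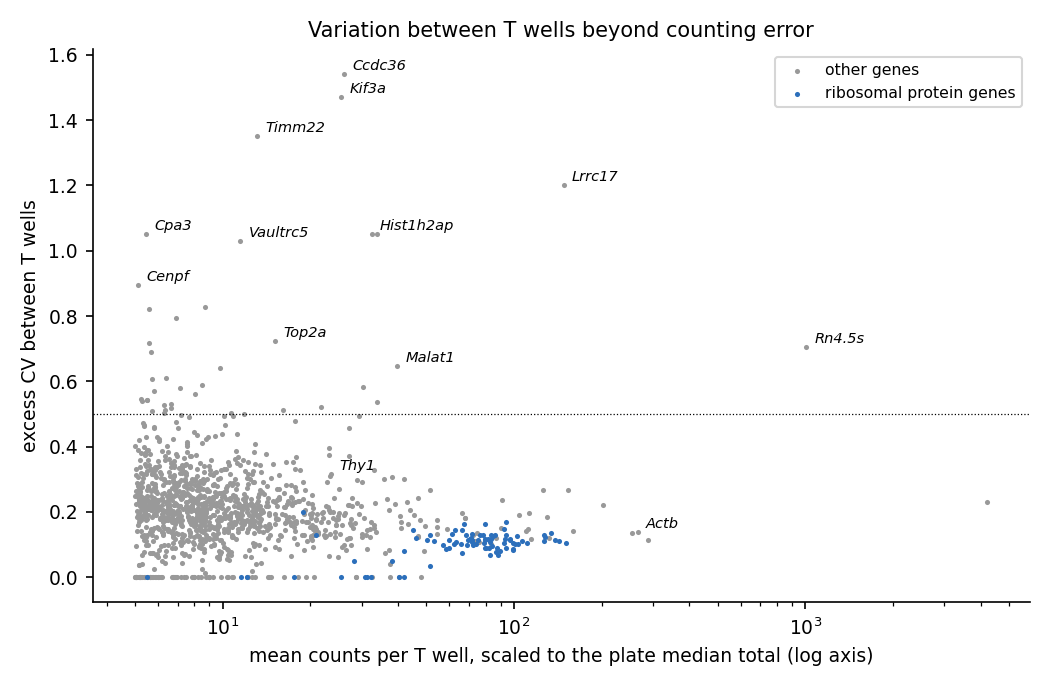
Excess CV between T wells (y) against the mean counts per well scaled to the plate's median total (x, log axis), 1 point per gene, with ribosomal protein genes in blue and a dotted line at 0.5. Ccdc36, Kif3a, Timm22 and Lrrc17 lie highest, and the ribosomal protein genes lie below 0.2.

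Genes of mitosis were frequent among the variable genes: 10 of the 26 G2 and mitosis genes with enough counts reached 0.5, against 1 of 17 S phase genes and 3.08% of all genes. Cenpf, a kinetochore protein, had an excess CV of 0.894, Ube2c, a ubiquitin-conjugating enzyme of the anaphase-promoting complex, 0.827, and Top2a, the topoisomerase that untangles sister chromatids, 0.724, with wells from 0 to 1120.7 CPM. All 3 varied more in the other lines, at 1.11, 1.01 and 0.885 in leukemia wells and 1.29, 1.34 and 1.26 in HPC wells, off-label wells included. Cenpf and Ube2c had fewer than 5 scaled counts there. Over the 45 pairs of the 10 genes the Spearman correlation had a median of 0.52 (0.30 to 0.79), against 0.03 over all pairs of the 38 variable genes that could be named. All points share a well's library, depth and plate. The G2 and mitosis list took a median of 0.917, 0.814, 0.905 and 0.897% of a well's counts on plates 1 to 4, and over all T wells 0.858% (0.205 to 1.58). Leukemia wells had 0.652% and HPC wells without the off-label wells 0.49%. Within each plate the share was higher in T wells with more counts, with Spearman correlations to the well's total of 0.49, 0.49, 0.37 and 0.56 over 31, 32, 24 and 33 wells. Both values come from the same library, and the part of depth in the variation was not tested. After thinning to 10000 counts the T median was 0.855%.

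S phase genes differed more between plates than mitosis genes in these medians. Their share had medians of 0.641, 0.47, 0.788 and 0.797%, and the lowest wells held 0.161, 0.116, 0.569 and 0.385%. After thinning the medians were 0.59, 0.51, 0.82 and 0.78%. Of the 60 genes of the list 8 were at least 2-fold lower on plate 1 than on plate 3 and none higher (3.59% of all genes were lower). In leukemia wells 1 was higher and none lower, beside 3.36 and 1.87% of all genes. Against the other lines 4 of 60 S phase genes (6.67%, against 12% of all genes) were higher in T wells, among them Tyms (1.51) and Rrm2 (1.12), 1 was lower and the median was -0.02. Of 62 G2 and mitosis genes 7 were higher (11.29%, near the share of all genes), among them Gtse1 (2.06), Aurka (1.68) and Smc4 (1.58), and 2 lower, Cdc20 (-1.98) and Hmmr (-1.07). Of the brakes on the cycle, Cdkn2c stood at 100.3 CPM against 14.9 in leukemia and 12.3 in HPC wells (2.66), and Cdkn2a had no count in T wells against 149.2 CPM in leukemia wells (-6.62).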

How the data were processed

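RNA of single cells was counted by gene in 96-well plates. The authors deposited estimated counts, that is molecules per gene in each well, not scaled, and of the positive values of target wells 5.44% are not whole (tolerance 1e-06). Per the submitters' processing notes, reads were handled with bcl2fastq and STAR against mm10; the versions, the counter and how it divided molecules were not given in the sources used here. The table has 1836 columns, of which 1338 were not used. Spike-in and mitochondrially encoded genes have no row.

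Groups came from the labels. Counts were summed per line and plate, scaled to CPM and compared as log2 (CPM + 1), which understates the change of low genes. A gene was assessed with at least 10 CPM in either group and 30 counts, and called at a mean difference of at least 1 with the same sign on all 4 plates. Ratios pool the plates without off-label wells, with exact binomial 95% intervals on rounded counts; where a line has no count, 3 counts over its wells stand in. A well is off-label where another line's markers exceed its own, and mixed where, without Cd3g, they reach 20% of its own. Named genes are the 15 largest calls in each direction with at least 50 CPM (no Rn45s, Gm, LOC or Rik symbols), members of the lists described, the 15 highest excess CVs and the 10 widest plate ranges. As 84 genes tie at an excess CV of 0, no lowest genes are named. The members, the 38 gene lists and the markers were chosen with earlier results of these data known, and the promoters after the plate values were seen. Gene positions are from a GENCODE annotation of GRCm38. Scripts were tested on simulated data. Software: scipy 1.17.1, pandas 2.3.3, numpy 2.4.6, matplotlib 3.10.9, python 3.11.15. Wells sorted by FACS, outside the rule that chose the T wells, entered no comparison. Some genes of the lists enter the counts but are not reported here by name.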

Additional observations from a re-analysis of the deposited data

Results flagged for a closer look

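FACS wells lay outside every comparison, and many did not match their label by the line markers. The label's own line led in 24 of 68 T, 23 of 66 leukemia and 13 of 45 HPC wells. The mismatch was thus not particular to the T label, and its cause was not tested. The Cd34 shares that follow are therefore not read as a difference in purity between FACS and ALPS. Cd34, the progenitor antigen, had a count in 27.9% of the 68 T-labelled FACS wells (interval 17.7 to 40.2%), against 0.833% of the 120 T wells picked by ALPS. Thy1 had a count in 24 of those 68 FACS wells (35.3%) and Cd160 in 25 (36.8%). Group sizes above 10 were not searched for single outlying wells.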

How the results depend on the processing

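For the T line against the other lines, 16 settings were tried. The number of higher genes moved by more than 1.5 times with 10 CPM added before the logarithm (7.06% of genes assessed, against 11.96%) and with a minimum of 50 CPM (10.96%), and the number of lower genes with a minimum of 50 CPM (8.92%, against 12.2%). The minimum leaves 3723 genes to assess. Without 1 plate at a time the shares were 11.93 to 12.8% higher and 11.93 to 12.75% lower. All 480 values of the 30 named genes kept their direction and their call, and 67 moved by more than the SD over plates. These genes are the largest calls of the same data, so this says nothing of genes near 2-fold. An excess CV of at least 0.5, reached by 39 genes, was reached by 18 without the highest well of each plate and by 15 with a minimum of 10 scaled counts, all among the 39. With wells thinned to 10000 counts 11 reached it, 10 of them among the 39, and without 1 plate 30 to 43, with 25 to 36 among them. The medians of S phase and of G2 and mitosis genes moved by less than the spread between wells, and without 1 plate ran from 0.663 to 0.736% and from 0.849 to 0.904%. For the plates of the T line, settings were added after the data were seen. Thinning raised the 2-fold shares to 2.14% (plates 1 and 2), 11.8% (1 and 3), 8.24% (1 and 4), 11.3% (2 and 3), 8.78% (2 and 4) and 2.86% (3 and 4), and the cause was not tested. With 10 CPM added, 0.0943% of genes differed between plates 3 and 4. With no independent cultures named, every comparison is limited to these wells. No paired analysis was possible because replicate numbers name wells and no test was run; differences were taken within plates, and with all plates pooled 12.46% of genes were higher and 11.98% lower.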
